A study of Homo sapiens with 2 samples.

Results

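The lysosome and autophagy genes of pancreatic cancer cells were compared between a compressed and an uncompressed culture. The set is a list of 39 named genes, drawn up with earlier results of these data known. It holds 14 lysosomal genes, 23 genes of autophagosome formation and cargo capture, and the transcription factor genes TFEB and TFE3. A platform annotation paired 14884 genes with a probe set, among them 33 of the 39, each with 1. The other 6 (NPC1, NPC2, BECN1, WIPI1, WIPI2 and NBR1) were not analysed here.

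The cells were AsPC-1, an established line from a human pancreatic adenocarcinoma, kept under a collagen overlay in 3 dimensions. The uncompressed group was 1 such culture after 24 h, and the compressed group was 1 culture after 24 h under 2.9 mmHg. Both were grown in the same serum-containing medium, and the labels name no transgene or drug for either. Total RNA of each was read on 1 GeneChip Human Gene 2.0 ST array, which reports a log2 signal per probe set. With 1 array per group there is no replicate error, no test and no p-value. The number of arrays limits the precision, and "higher" and "lower" describe these arrays only. In a lysate of many cells, a change in the share of cells that carry a transcript and a change per cell cannot be told apart.

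Lysosomes are acidic organelles in which proteases and other hydrolases break down material delivered by endocytosis and autophagy. In autophagy, a kinase and a lipid kinase complex start a double membrane, ubiquitin-like conjugation attaches ATG8 proteins to it, and receptors bind the ATG8 proteins and the cargo together. Many lysosomal genes share an E-box motif in their promoters that TFEB and TFE3 bind. Pancreatic adenocarcinoma is known for high basal autophagy and for nuclear MiT transcription factors.

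Differences are log2 values, with the uncompressed level subtracted from the compressed one. Genes whose mean over both arrays reached 4.79, the median over all genes, were kept. This floor stood in for a detection call, so whether a dimmer gene was above background is unknown. The floor kept 7442 genes and 29 of the 33 members. LAMP3, TFEB, MAP1LC3B and GABARAPL1 lay under it. Among all kept genes the median difference was 0.01, with quartiles at -0.15 and 0.18. In the 150 protein-coding genes with 2 different probe sets above the floor, the SD of a single probe set's difference was 0.183. That SD compares probe sets on the same arrays and does not contain the spread between cultures. Of 10 epithelial markers 8 were named and 6 kept, among them KRT18 (11.54 uncompressed, 11.71 compressed) and EPCAM (10.77 and 10.43). TFF1 (4.93 and 5.08) was just above the floor. KRT7 (3.36 and 3.78) and S100P (4.12 and 4.36) were under it on both arrays. Of 8 macrophage markers 4 were named, and CD14, CSF1R and CD163 read between 2.43 and 4.10 on both arrays, under the floor. The fourth, LYZ, read 9.04 and 8.82. Of 7 fibroblast markers, DCN read 1.79 and 1.82 and LUM read 9.75 and 9.39, and the other 5 were not analysed here.

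To show what the lysosomal promoters look like, 5 windows from RefSeq (GRCh38.p14) are printed 5′ to 3′ on the gene's strand, from 250 bases before the start to 50 after. LAMP1, MCOLN1 and CTSA are shown because they hold the 8-letter motif TCACGTGA, and CTSL and CD68 because they were the lysosomal members with the largest differences. Capitals mark the 6-letter E-box CACGTG, which lies inside the 8-letter motif. Both motifs are their own reverse complement, so a match counts for both strands.

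LAMP1, chr13:113296989-113297288, plus strand: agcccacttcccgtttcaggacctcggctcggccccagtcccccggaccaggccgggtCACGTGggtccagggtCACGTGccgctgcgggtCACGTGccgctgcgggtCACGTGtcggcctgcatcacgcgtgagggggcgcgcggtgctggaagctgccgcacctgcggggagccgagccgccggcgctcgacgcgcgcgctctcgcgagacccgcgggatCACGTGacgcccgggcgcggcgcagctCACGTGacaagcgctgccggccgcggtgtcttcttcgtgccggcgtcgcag
MCOLN1, chr19:7522374-7522673, plus strand: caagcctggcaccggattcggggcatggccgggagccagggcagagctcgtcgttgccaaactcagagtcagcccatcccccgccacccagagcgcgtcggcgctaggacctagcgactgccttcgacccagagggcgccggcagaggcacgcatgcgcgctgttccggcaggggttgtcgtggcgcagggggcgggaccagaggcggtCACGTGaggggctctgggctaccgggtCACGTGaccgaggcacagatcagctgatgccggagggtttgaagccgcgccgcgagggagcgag
CTSA, chr20:45891085-45891384, plus strand: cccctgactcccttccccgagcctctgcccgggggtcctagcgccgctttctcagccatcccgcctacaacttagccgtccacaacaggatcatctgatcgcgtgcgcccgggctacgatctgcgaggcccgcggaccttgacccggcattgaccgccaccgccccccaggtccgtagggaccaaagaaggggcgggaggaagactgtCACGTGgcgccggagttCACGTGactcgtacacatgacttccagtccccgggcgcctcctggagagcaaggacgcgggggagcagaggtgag
CTSL, chr9:87725869-87726168, plus strand: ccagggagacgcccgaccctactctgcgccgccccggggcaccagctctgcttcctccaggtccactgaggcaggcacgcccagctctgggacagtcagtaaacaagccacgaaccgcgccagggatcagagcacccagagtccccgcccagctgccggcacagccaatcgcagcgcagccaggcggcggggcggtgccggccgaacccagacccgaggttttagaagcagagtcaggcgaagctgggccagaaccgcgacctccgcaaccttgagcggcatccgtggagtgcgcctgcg
CD68, chr17:7579388-7579687, plus strand: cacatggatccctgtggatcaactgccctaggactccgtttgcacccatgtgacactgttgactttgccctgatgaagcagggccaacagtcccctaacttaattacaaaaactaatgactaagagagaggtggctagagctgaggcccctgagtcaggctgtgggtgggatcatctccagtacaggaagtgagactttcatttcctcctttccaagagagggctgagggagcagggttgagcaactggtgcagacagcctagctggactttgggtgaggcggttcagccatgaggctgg

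Compressed cells had higher signals of a few members from different steps of the pathway, and no kept member was lower by 1.5-fold. The 4 kept members at least 1.5-fold higher were CTSL, CD68, OPTN and TFE3, and 0 of 29 were at least 1.5-fold lower. The corresponding shares over all kept genes were 3.95% for higher and 1.12% for lower. At the latter share, a count of 0 among 29 is near the background. At 2-fold, CTSL alone passed, against 0.954% of kept genes. At a smaller size, a log2 difference of 0.32 (25% higher, or the reverse), 6 members were higher and 0 lower, against 13.5% and 8.28% of kept genes. The additional genes were ATG9A and ATG12. A positive difference was found for 22 of 29 kept members, against 50.8% of kept genes. Of the 29, 15 differed by less than the probe set SD of 0.183, 13 were above it and 1, LAMP2, was below its negative. The quartiles over all kept genes were -0.15 and 0.18, so this SD lay about at their upper quartile. Of all kept genes, 24.5% had a larger difference than ATG14, the lowest of the 13, and 88.3% a larger one than LAMP2. The exact shares of all kept genes beyond the SD were not counted.

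**Figure D1:**
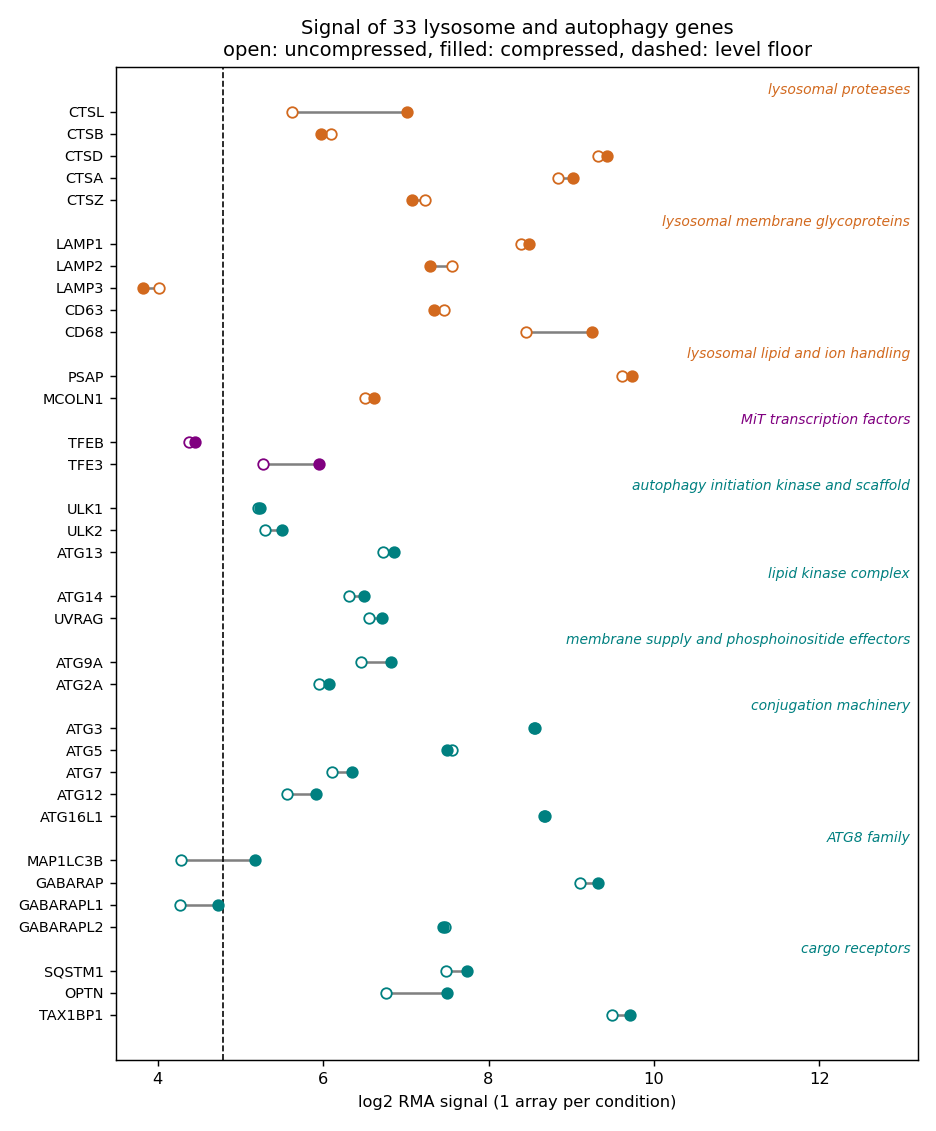
Log2 RMA signal (x axis) of the 33 members with a named probe set (y axis, grouped by role), open circles for the uncompressed and filled circles for the compressed array, with 1 array per condition and no error bars. The longest lines belong to CTSL (5.63 to 7.01), MAP1LC3B (4.29 to 5.18), CD68 (8.45 to 9.26), OPTN (6.76 to 7.50) and TFE3 (5.27 to 5.95), and the dashed line is the level floor of 4.79.

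Among the lysosomal proteases, cathepsin L stood apart from the other 4. CTSL (NCBI Gene 1514, probe set 17086540), a cysteine endopeptidase, read 5.63 without and 7.01 with compression. That is a difference of 1.38, or 2.61-fold, and 25 of the 7442 kept genes (0.336%) had a larger one. CTSA, which encodes protective protein cathepsin A, a serine carboxypeptidase, read 8.84 and 9.03. CTSD, the aspartic protease cathepsin D, read 9.32 and 9.44. For the cysteine proteases CTSB and CTSZ the compressed culture was the lower one, by small amounts. CTSB read 6.09 and 5.98, and CTSZ, a carboxypeptidase, read 7.23 and 7.08. The 4 proteases other than CTSL thus differed by -0.15 to 0.19, and only CTSA exceeded the probe set SD. CTSL has close relatives, and probes can share targets among them. CTSV, the cathepsin most similar to it, read 4.73 and 4.54, under the floor on both arrays. The pseudogenes CTSLP2 (4.14 and 4.43), CTSLP8 (1.78 and 2.54) and CTSL3P (2.55 and 1.59) were also under the floor on both arrays. CTSV was in the list of other proteases, and the pseudogenes were looked up after the value of CTSL was seen.

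The lysosomal membrane glycoproteins did not move together. CD68 (NCBI Gene 968), a heavily glycosylated LAMP-family protein that is also used as a macrophage marker, read 8.45 and 9.26. It was 1.75-fold higher (difference 0.81), and 129 kept genes (1.73%) had a larger difference. CD14, CSF1R and CD163 differed by 0.05, 0.09 and -0.06 while staying under the floor. LYZ differed by -0.22. A part of macrophage RNA in the CD68 signal was not tested. LAMP1 and LAMP2, the abundant structural glycoproteins of the limiting membrane, had opposite signs. LAMP1 read 8.39 and 8.49, and LAMP2, which also serves chaperone-mediated autophagy, read 7.56 and 7.29. The difference of LAMP2, -0.27, was the most negative of all kept members. CD63, a tetraspanin of late endosomes and lysosomes, read 7.46 and 7.34. LAMP3, an inducible family member, read 4.01 and 3.82, under the floor on both arrays.

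Of the members for lipid and ion handling, PSAP and MCOLN1 were measured, and both differed little. PSAP encodes prosaposin, the precursor of the saposins that assist sphingolipid breakdown, and read 9.61 and 9.74. MCOLN1 encodes TRPML1, a lysosomal cation channel that conducts calcium, zinc and iron out of the organelle. It read 6.50 and 6.62, a difference of 0.11.

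The MiT transcription factors control lysosomal and autophagy genes and are held in the cytoplasm by mTORC1. TFE3 (NCBI Gene 7030) read 5.27 without and 5.95 with compression, 1.60-fold higher with a difference of 0.67. TFEB read 4.38 and 4.45, under the floor on both arrays, with a difference of 0.08. These values are RNA signals and do not report the location of either protein.

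The genes that start an autophagosome had small positive differences. In the initiation complex, the kinase genes ULK1 and ULK2 read 5.21 and 5.23, and 5.30 and 5.50, and their partner ATG13 read 6.73 and 6.86. In the lipid kinase complex, ATG14, the subunit that directs the complex to autophagy, read 6.31 and 6.50. UVRAG, the subunit of the endosomal form, read 6.55 and 6.71. All 5 were higher in the compressed culture, by 0.02 to 0.20, while 50.8% of all kept genes were above 0. The differences of ULK1, ATG13 and UVRAG were smaller than the probe set SD of 0.183. ATG9A, a lipid scramblase carried on membrane vesicles, read 6.46 and 6.81, 1.28-fold higher. ATG2A, a lipid transfer protein that feeds the growing membrane, read 5.95 and 6.07, a difference also smaller than that SD.

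The conjugation machinery attaches ATG8 proteins to the membrane lipid phosphatidylethanolamine, and its 5 genes were split. ATG12, a ubiquitin-like protein, read 5.56 and 5.91, 1.27-fold higher, and ATG7, the enzyme that activates ATG12 and ATG8 proteins, read 6.11 and 6.35. ATG3, the ATG8 transfer enzyme, read 8.56 and 8.57. ATG5 (7.56 and 7.49) and ATG16L1 (8.69 and 8.67), which form a complex with ATG12, were lower by less than 0.1. The differences of ATG3, ATG5 and ATG16L1 were smaller in size than the probe set SD of 0.183. The median of the 5 differences was 0.01, against 0.01 over all kept genes.

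The ATG8 proteins coat the autophagosome and bind receptors, and the 4 genes gave unlike values. GABARAP read 9.10 and 9.32, and GABARAPL2 read 7.47 and 7.45. MAP1LC3B, the gene of LC3B, read 4.29 and 5.18, crossing the floor between the arrays. Its difference of 0.89 would have passed 1.5-fold without the floor, but its mean of 4.73 lay just under it, so no fold is given. GABARAPL1 read 4.27 and 4.72, with a difference of 0.45. MAP1LC3B2, a near-identical copy of MAP1LC3B, went the other way, from 5.62 to 5.25, so the division of signal between these copies is uncertain. MAP1LC3A read 4.21 and 3.84, also under the floor.

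All 3 measured cargo receptors were higher in the compressed culture, while 50.8% of all kept genes were above 0. OPTN (NCBI Gene 10133), optineurin, a ubiquitin-binding receptor for damaged mitochondria and bacteria, read 6.76 and 7.50. It was 1.67-fold higher (difference 0.74), with a larger difference in 159 kept genes (2.14%). SQSTM1, which encodes p62, the receptor for ubiquitinated protein aggregates, read 7.49 and 7.74. TAX1BP1, a receptor related in function to optineurin, read 9.49 and 9.71. Their differences of 0.26 and 0.21 were above the probe set SD and below 0.32.

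The lysosomal and the autophagosome members are given side by side, and the difference between them was not tested. The 11 kept lysosomal members had a median difference of 0.11, with 7 above 0, 2 at least 1.5-fold higher and 0 lower. Apart from CTSL and CD68 the remaining 9 lay between -0.27 and 0.19. The 17 kept autophagosome members had a median of 0.19, with 14 above 0, 1 at least 1.5-fold higher and 0 lower. Over all kept genes 50.8% were above 0, 3.95% at least 1.5-fold higher and 1.12% lower, and 1 of 17 is near that share. Apart from OPTN the other 16 lay between -0.06 and 0.35. The quartiles were -0.11 and 0.16 for the lysosomal members and 0.02 and 0.24 for the autophagosome members, against -0.15 and 0.18 for all kept genes. Summarised by means, the order turned, with 0.20 for lysosomal and 0.18 for autophagosome members. After quantile normalization was repeated over the named probe sets, the medians were 0.04 and 0.12, while that over all kept genes was -0.03.

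**Figure D2:**
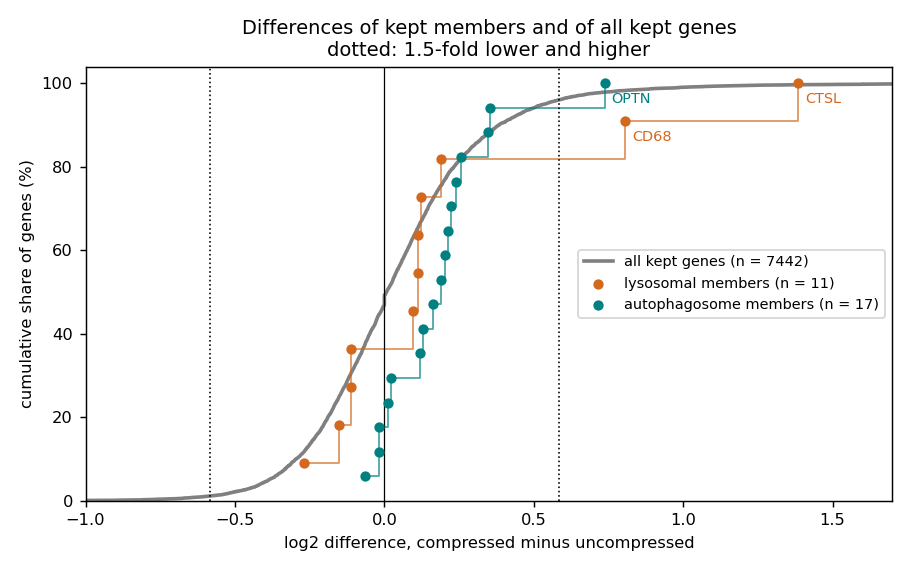
Cumulative share of genes (y axis, percent) against the log2 difference, compressed minus uncompressed (x axis), for all 7442 kept genes (grey line), the 11 kept lysosomal members and the 17 kept autophagosome members (1 point per gene). The lowest autophagosome point is at -0.06, the lysosomal points start at -0.27, and CTSL, CD68 and OPTN lie to the right of the dotted 1.5-fold line.

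Other genes of the same pathways, listed by function, were described in the same way. These lists too were chosen with earlier results of these data known, so their counts are no independent check. In the lists of other lysosomal proteases, hydrolases, membrane proteins and enzyme delivery, 41 of 98 genes were named and 29 were kept. Of the 29, 11 were above 0, 0 passed 1.5-fold upward and 0 downward, with a median of -0.09. With 50.8% of all kept genes above 0, 3.95% higher and 1.12% lower, the counts of 0 in a list of this size are near the background. None of the 22 V-ATPase genes, which encode the proton pump that acidifies the lysosome, had a named probe set here. The largest lysosomal difference was that of IGF2R, a receptor that carries hydrolases to lysosomes, from 6.86 to 7.35. IDS, the sulfatase iduronate 2-sulfatase, read 5.99 and 6.43. The lowest was GM2A, the GM2 ganglioside activator, which read 5.63 with compression, a difference of -0.37. The 8 other kept proteases differed by -0.22 to 0.21, so CTSL was the 1 protease of the 13 kept whose difference passed 0.32 in size.

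On the autophagy side, 41 of 57 listed genes were named and 36 were kept. Of these, 25 were above 0, the median was 0.09, and 4 passed 1.5-fold upward and 0 downward, against 50.8% above 0, 3.95% upward and 1.12% downward over all kept genes. BNIP3L, a mitophagy receptor on the outer mitochondrial membrane, read 8.37 and 9.26, 1.85-fold higher. PINK1, the kinase that marks damaged mitochondria, read 6.27 and 6.94, 1.59-fold higher. EPG5, a tethering factor for fusion of autophagosomes with lysosomes, read 5.59 and 6.38, 1.73-fold higher. RUBCN, which encodes the autophagy inhibitor Rubicon, read 4.86 and 5.53, 1.60-fold higher, so the 4 genes include an inhibitor. STX17, the autophagosomal SNARE, was the lowest of these lists at 5.06 and 4.64. With the floor at the 75th percentile the medians were -0.02 on the lysosomal and 0.01 on the autophagy side, over 13 and 17 genes.

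The mTORC1 pathway signals from the lysosomal surface and represses autophagy. Of 12 kept genes in its list, 9 were above 0, and 0 passed 1.5-fold upward and 1 downward, beside the same shares of 50.8%, 3.95% and 1.12% over all kept genes. The lower gene was DEPTOR, an inhibitor that binds mTOR, at 7.19 and 6.51, 1.60-fold lower. TSC1, a subunit of the complex that restrains mTORC1, read 6.26 and 6.76. RHEB, the GTPase that activates mTORC1, read 4.94 and 5.36. The inhibitors DEPTOR and TSC1 thus had opposite signs. Of 5 kept cystatin genes, which encode inhibitors of cysteine proteases such as cathepsin L, 0 passed 1.5-fold, with a median of 0.00. At shares of 3.95% and 1.12% over all kept genes, a count of 0 among 5 is near the background. CSTB read 9.61 and 9.74 and CST3 read 8.51 and 8.50.

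**Figure D3:**
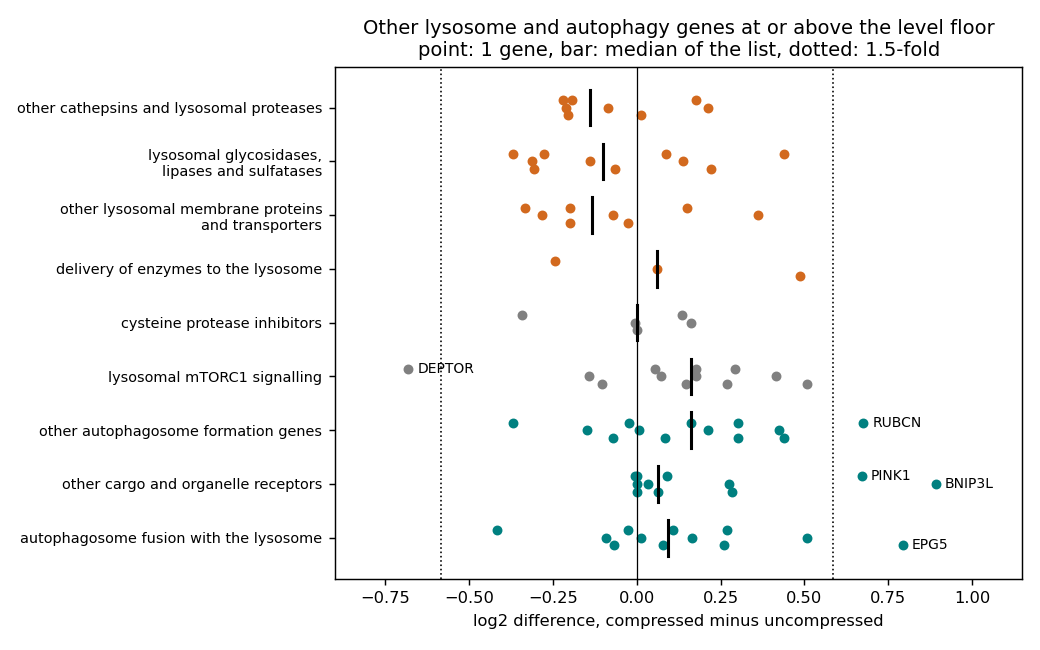
Log2 difference, compressed minus uncompressed (x axis), of kept genes in 9 lists of other lysosome and autophagy genes (y axis, 1 point per gene, black bar for the list's median, vertical jitter without meaning). BNIP3L at 0.89, EPG5 at 0.79, RUBCN at 0.68, PINK1 at 0.67 and DEPTOR at -0.68 are the points beyond the dotted 1.5-fold lines.

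The promoter windows were searched for the E-box motifs, since the data bear on genes that TFEB and TFE3 are known to bind. The table held windows for 34 of the 39 members. CACGTG was found in 7 of these 34 genes (20.6%), against 8.77% of all 27305 genes in the table. The 7 were LAMP1, MCOLN1, CTSA, CTSD, CD63, ATG3 and ATG14, that is 5 of 10 lysosomal and 2 of 22 autophagosome genes. Lysosomal genes are already known to share this E-box, so its frequency among them was foreseeable and is no result of these arrays. The longer TCACGTGA was found in 4 of 34 (11.8%), against 1.18% of all genes. Both motifs were more frequent among the kept genes with a window than among all genes of the table. Of these kept genes, 749 held CACGTG and 5135 did not, and 139 held TCACGTGA and 5745 did not. Per window, 7.26% of all 35116 windows held CACGTG and 0.980% held TCACGTGA. LAMP1 had 6 copies of CACGTG, at -192, -176, -159, -142, -28 and -1 from its start, counting the first base of the motif. MCOLN1 had copies at -41 and -14 and CTSA at -42 and -25. CD63 had the motif in 1 of its 8 windows.

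Of the 29 kept members 25 had a window, and those with and without the motif overlapped in their differences. The 7 members with CACGTG differed by -0.11 to 0.19 (median 0.11), and the 4 with TCACGTGA by 0.01 to 0.19. The 18 without CACGTG differed by -0.15 to 1.38 (median 0.22), and the 14 of them under 1.5-fold by -0.15 to 0.35. All 4 members at least 1.5-fold higher (CTSL, CD68, OPTN and TFE3) had windows in the table, and 0 of them held CACGTG. Among all kept genes with a window 5135 lacked CACGTG and 749 held it, so a count of 0 among 4 is near the background. The absence of a match says only that these letters are not in these windows. Among all kept genes with a window, the 139 with TCACGTGA had a median difference of 0.00, and 3 of them (2.16%) were at least 1.5-fold higher. The 5745 without it had a median of 0.01, and 3.60% were at least 1.5-fold higher. For CACGTG, 18 of the 749 genes with it (2.40%) and 3.74% of the 5135 without it were at least 1.5-fold higher. The shares with a motif rest on few genes, and the gaps were not tested.

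**Figure D4:**
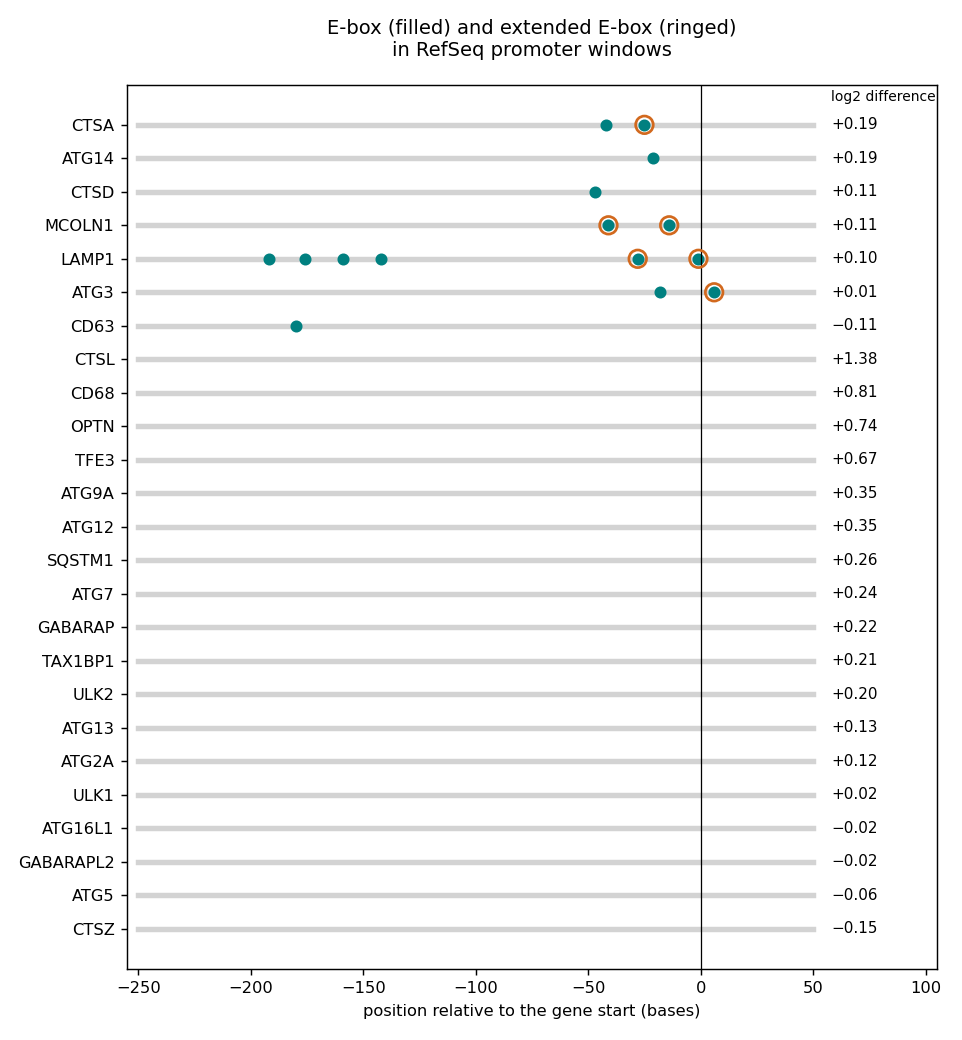
Position of the 6-letter E-box CACGTG (filled points, first base) and of the 8-letter form TCACGTGA (rings) relative to the gene start (x axis, bases) in RefSeq promoter windows of the 25 kept members with a window (y axis), with each gene's log2 difference, compressed minus uncompressed, at the right. The 7 genes with a motif (top) differ by -0.11 to 0.19, within the range of the 18 genes without one, -0.15 to 1.38.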

How the data were processed

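The authors deposited 1 log2 value per array and probe set. The submitters' processing notes name RMA and Transcriptome Analysis Console as the tools. RMA subtracts background, forces the arrays to 1 common distribution and summarises probes, so a shift shared by all genes is removed and differences of dim genes are compressed. For the tool versions and the build, no statement is given in the sources used here.

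In all there were 53617 probe sets, of which 16098 carried 1 gene, 0 several and 37519 none. All 16098 gene identifiers matched RefSeq (GRCh38.p14). Each of 14884 genes was given its brightest probe set by mean of both arrays. Genes with a mean at or above the median, 4.79, were kept. Members were counted at 1.5-fold (0.58 on the log2 scale). The members and lists were chosen with earlier results of these data known. All members could be named, and from other lists kept genes past 1.5-fold and up to 3 with the largest difference in each direction. CTSV, the CTSL pseudogenes, MAP1LC3A, MAP1LC3C, RRAGB, BNIP3, MITF and TFEC were named outside this rule, and all had means under the floor. Alternatives were other level floors, averaged probe sets, loess correction (span 0.3), median centring, repeated quantile normalization, other sizes and means. Promoter sequences came from RefSeq. Scripts ran in Python 3.11.15 (pandas 2.3.3, NumPy 2.4.6, statsmodels 0.14.6 for loess, SciPy 1.17.1), and plots were drawn with matplotlib 3.10.9.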

Additional observations from a re-analysis of the deposited data

How the results depend on the processing

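The counts of members at least 1.5-fold higher (4) and lower (0) and the medians of the lysosomal (0.11) and autophagosome (0.19) members were recomputed under each alternative that applies to them. At 2-fold, 1 member was higher. After repeated quantile normalization the lysosomal median was 0.040 and the autophagosome median 0.12, and the cause was not tested. By the mean, the lysosomal value was 0.20. Under the other alternatives these counts and medians stayed within 1.5 times of the reported values. With no level filter and with a floor on the brighter array, which was chosen after seeing the data, MAP1LC3B also passed 1.5-fold. With the floor at the 75th percentile TFE3 was not kept. The 33 members' differences moved by at most 0.113 under averaged probe sets, loess correction, centring and repeated quantile normalization, and 0 changed sign (ATG16L1 reached 0). Each member has 1 probe set, so averaging could not move it, and centring subtracted the same 0.007 from every gene. Only loess correction and repeated quantile normalization could move members by unlike amounts. No paired analysis was possible because each group is 1 array. Only named probe sets and no detection calls were used, so dim members have no settled background.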

Other observations

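Some lysosome and autophagy genes under the level floor differed by more than most kept members, and whether they were above background is unknown. RRAGB, a GTPase that recruits mTORC1 to the lysosome, read 3.15 without and 3.90 with compression. BNIP3, the mitophagy receptor related to BNIP3L, read 4.02 and 3.29, opposite in sign to BNIP3L. MAP1LC3C read 3.09 and 3.69. The MiT family genes MITF (2.31 and 2.33) and TFEC (1.52 and 1.74) were also under the floor, so TFE3 was the 1 kept gene of the 4 in that family.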
